A study of Mus musculus with 4 samples.

Results

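CC chemokines are small secreted proteins that guide leukocytes by binding G protein-coupled receptors of the CCR family. In the allergic lung they are known for drawing eosinophils, monocytes, T cells and dendritic cells, and group 2 innate lymphoid cells (ILC2s), the tissue lymphocytes that respond to IL-33 with type 2 cytokines, both secrete some of them and carry receptors for others. Here 10 CC chemokine genes, Ccl1, Ccl3, Ccl4, Ccl5, Ccl6, Ccl7, Ccl9, Ccl17, Ccl22 and Ccl24, were followed in activated lung ILC2s. They were taken by symbol from the 22558 genes of the count table, and 10 of 10 were found in both the count table and the table of normalized counts and passed the filter on low values that left 11711 genes to test.

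The samples were 2 libraries from WT (C57BL/6) mice and 2 from ICAM-1 KO mice, of the strain that the study's methods give as B6.129S4-Icam1tm1Jcgr/J. That allele is a constitutive knockout of the adhesion molecule ICAM-1, not one limited to ILC2s. All mice were 6 weeks of age and all had received 3 intranasal doses of 0.5 µg rmIL-33 (recombinant mouse IL-33), so that no untreated library is part of the comparison. Each library was made from 10 ng RNA of sorted CD45+ lineage-negative ST2+ CD127+ lung cells pooled from 4 mice, and the p-values below measure the spread between these pools only. The question asked was which transcripts of activated ILC2s change in the absence of ICAM-1.

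The libraries held 24796148 to 28782471 estimated counts. Icam1, the targeted gene, had 2579 and 2630 counts in WT and 2812 and 3453 in the other group. Its log2 fold change was 0.33 (SE 0.108, adjusted p = 0.0745 by the quasi-likelihood test of edgeR, adjusted over all genes tested after Benjamini and Hochberg). Its RNA was thus not lower, and the other group is called the ICAM-1 KO-labelled libraries. For the protein, the paper states that ICAM-1 KO mice lack ICAM-1, from flow cytometry of lung ILC2s after rmIL-33. The ILC2 markers listed were detected, 14 of 14, with the largest counts for Arg1 and Il5. The summed normalized count of the 14 was 7767 to 8290 in WT and 6943 to 7001 in the ICAM-1 KO-labelled libraries. Within that sum, Arg1 had a mean of 1583 in WT and 993 in the others, and Il5 1145 and 662. The median log2 fold change of the 14 was -0.06. Transcripts of other lung cells were also present, and their values stand beside the chemokines they move with. In such bulk RNA, fewer cells of a type and less RNA per cell cannot be told apart.

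Of the 10 chemokine genes, 4 rose in the ICAM-1 KO-labelled libraries, namely Ccl22, Ccl6, Ccl9 and Ccl24, where 8.80% of all genes tested rose (edgeR, adjusted p under 0.05). None of the 10 fell, where 4.97% of all genes fell. At an unadjusted p under 0.05 in edgeR, 5 were higher and 1 was lower, where 17.1% and 13.1% of all genes were. DESeq2 called 4 higher and 1 lower, against 10.8% and 7.94% of all genes. Ccl22 alone passed the test with a change of at least 2-fold, a limit that 4.94% of all genes passed upward and 0.538% downward. The median log2 fold change was 0.28 over the 10 genes and 0.01 over all genes tested. For 5 genes both ICAM-1 KO-labelled libraries lay above both WT libraries, and for 2 both lay below; over all genes tested these shares were 28.3% and 31.3%.

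**Figure D1:**
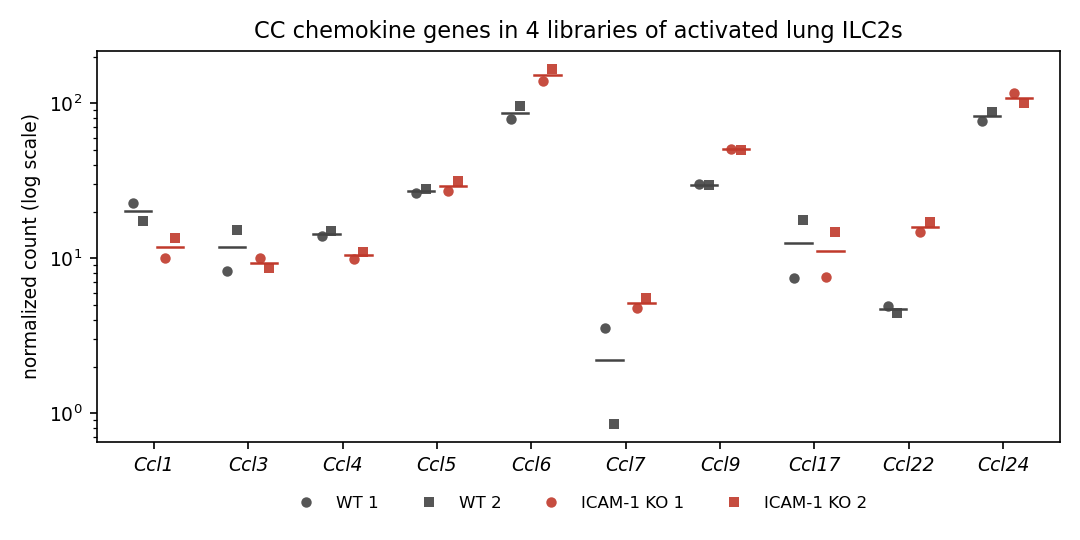
Normalized count of each CC chemokine gene on a log axis in the 2 WT libraries (grey) and the 2 ICAM-1 KO-labelled libraries (red), with circles for replicate 1, squares for replicate 2 and a line at the mean of each group. Ccl6 and Ccl24 have the largest counts, which are not corrected for length, Ccl22 shows the widest gap between the groups, and Ccl17 differs more between replicates than between groups.

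The ligands of CCR4, a receptor of Th2 cells, regulatory T cells and ILC2s, are Ccl17 and Ccl22. Ccl22, which is made mainly by dendritic cells and macrophages, had normalized counts of 4.95 and 4.43 in WT and 14.8 and 17.2 in the ICAM-1 KO-labelled libraries. The groups did not overlap, and the gap between them was larger than the gap within either. The mean was 4.69 ± 0.367 (SD, n = 2) in WT and 16.0 ± 1.71 (SD, n = 2) in the ICAM-1 KO-labelled libraries. This was a rise of 3.5-fold (log2 fold change 1.81, SE 0.267, edgeR adjusted p = 0.00418). Leaving out any 1 library gave log2 fold changes from 1.68 to 1.92, each past the test.

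Ccl17 had 7.46 and 17.6 in WT and 7.53 and 14.9 in the ICAM-1 KO-labelled libraries. The second replicate was the higher one in both groups, by 2.36-fold in WT and by 1.98-fold in the ICAM-1 KO-labelled libraries, and the groups overlapped fully. The log2 fold change was -0.13 (SE 0.428, edgeR adjusted p = 0.876), and its sign turned to 0.63 without WT replicate 2 and to 0.28 without ICAM-1 KO replicate 1.

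Ccl22 (chr8:94745590-94751699, mm10, plus strand) and Ccl17 (chr8:94810453-94812036, plus strand) are 58.8 kb apart on chromosome 8, with Cx3cl1, the gene of the CX3C chemokine fractalkine, between them. The ratio of Ccl22 to Ccl17 counts was 0.662 and 0.251 in WT and 1.97 and 1.16 in the ICAM-1 KO-labelled libraries. Ccl17 was thus the more counted of the pair in both WT libraries and Ccl22 in both others, a statement on counts that are not corrected for length. With 2 libraries against 2, the exact permutation test (two-sided) cannot go below p = 0.333, which is the value it gave. Cx3cl1 itself had 6.01 and 9.69 normalized counts in WT and 10.2 and 13.9 in the ICAM-1 KO-labelled libraries (log2 fold change 0.65, SE 0.310, edgeR adjusted p = 0.199).

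The upstream sequences of this pair are shown because these neighbours, which share a receptor, differed in their values. They are the last 150 bases before the annotated start, from RefSeq windows on GRCm38.p6, the assembly of mm10, and 6 of the 10 genes matched an entry of that table (all except Ccl4, Ccl5, Ccl7 and Ccl24). Capitals in the Ccl17 window mark a match to the STAT5 motif TTCNNNGAA and one to the GATA motif AGATAA, read on both strands; the Ccl22 window, at chr8:94745440-94745589 and ending 95 bases before the RefSeq start, has no capitals because none of the motifs searched was found in it. The Ccl17 window is chr8:94810303-94810452.
Ccl22: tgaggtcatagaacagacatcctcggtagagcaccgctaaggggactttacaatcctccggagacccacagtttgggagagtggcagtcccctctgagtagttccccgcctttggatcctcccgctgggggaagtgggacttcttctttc
Ccl17: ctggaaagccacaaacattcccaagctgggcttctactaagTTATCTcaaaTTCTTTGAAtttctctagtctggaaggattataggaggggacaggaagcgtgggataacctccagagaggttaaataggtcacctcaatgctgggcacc
Within 250 bases before the RefSeq start, 5 motifs were searched on both strands, and their share was taken over the 32851 windows of that length in the table. The NF-kB motif, GGG and TTTCC with 2 bases of any kind between them, occurs in 1.41% of these windows. The STAT6 motif, TTC and GAA with 4 bases between them, occurs in 5.85%, the STAT5 motif in 7.02% and the GATA motif in 9.99%. The TATA box, read as TATAAA, occurs in 12.4%. Ccl17 held 1 match to STAT6, from -154 to -145, 1 to STAT5, from -99 to -91, and 1 to GATA, from -109 to -104. None of the 5 motifs was found in the windows of Ccl1, Ccl3, Ccl6 and Ccl22, and Ccl9 held no match to the STAT6, STAT5 or GATA motif.

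Ccl6 and Ccl9 bind CCR1, a receptor of monocytes, macrophages and neutrophils, and belong to a rodent branch of the family that is made by myeloid cells. Ccl6 had 78.8 and 95.5 normalized counts in WT and 139 and 168 in the ICAM-1 KO-labelled libraries. Every ICAM-1 KO-labelled library was above every WT library. The means were 87.1 ± 11.8 (SD, n = 2) and 154 ± 20.2 (SD, n = 2), a 1.80-fold rise (log2 fold change 0.84, SE 0.133, edgeR adjusted p = 0.00563). Ccl9 had 30.0 and 29.7 in WT and 51.0 and 50.2 in the ICAM-1 KO-labelled libraries. Its replicates differed by at most 1.02-fold, the closest of the 10 genes in both groups. It rose 1.73-fold (log2 fold change 0.79, SE 0.131, edgeR adjusted p = 0.00705), and leaving out any 1 library kept the log2 fold change between 0.78 and 0.80. For Ccl6 that range was 0.69 to 0.99, with each value past the test.

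Ccl6 (chr11:83587882-83593087, minus strand) and Ccl9 (chr11:83572919-83578636, minus strand) lie 9.25 kb apart on chromosome 11, in one block with Ccl5, Ccl3 and Ccl4. The ratio of Ccl9 to Ccl6 counts was 0.381 and 0.311 in WT and 0.366 and 0.299 in the ICAM-1 KO-labelled libraries, so the pair kept overlapping ratios while both genes rose. On the other side of Ccl9, the ratio of Ccl5 to Ccl9 was 0.884 and 0.941 in WT and 0.531 and 0.632 in the ICAM-1 KO-labelled libraries. The ratio of Ccl6 to Ccl3 was 9.50 and 6.28 in WT and 13.9 and 19.4 in the others. Both of these ratios separated the groups, with an exact permutation p of 0.333 each, the smallest this design allows (0.556 after Benjamini-Hochberg adjustment over the 5 neighbour pairs).

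The windows upstream of Ccl6 (chr11:83593088-83593237, minus strand) and Ccl9 (chr11:83578637-83578786, minus strand) are shown because these neighbours rose together. Capitals mark the longest run the windows share.
Ccl6: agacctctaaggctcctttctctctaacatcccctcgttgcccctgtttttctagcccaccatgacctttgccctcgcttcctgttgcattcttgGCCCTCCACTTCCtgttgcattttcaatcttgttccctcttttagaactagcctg
Ccl9: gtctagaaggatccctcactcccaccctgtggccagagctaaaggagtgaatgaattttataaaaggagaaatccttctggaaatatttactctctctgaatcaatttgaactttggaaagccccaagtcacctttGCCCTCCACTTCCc
This run of 13 bases begins 55 bases before the start of Ccl6 and 14 bases before that of Ccl9. Among the 15 pairs of the 6 windows, the longest shared run had a median of 7 bases and ranged from 5 to 13, and the pair of Ccl6 and Ccl9 had the 13. Ccl9 also held 1 match to the NF-kB motif, from -35 to -26, and 3 matches to the TATA box, of which 2 overlap between -94 and -87. Counting could mix little between these genes: of 50-base windows of their transcripts, 0 of 1743 in Ccl6 and 59 of 2996 (1.97%) in Ccl9 occur in transcripts of another gene. Ccl6 overlaps the gene E230016K23Rik on the opposite strand, with no exon base in common and 2 to 24 counts per library.

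**Figure D2:**
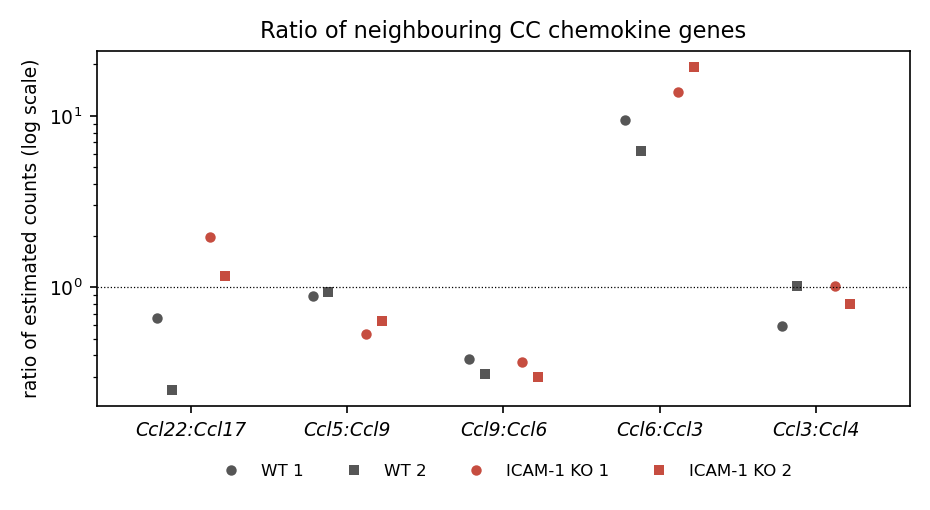
Ratio of estimated counts for 5 pairs of neighbouring chemokine genes under 100 kb apart, on a log axis, in the 2 WT libraries (grey) and the 2 labelled ICAM-1 KO (red). The ratio of Ccl9 to Ccl6 stays between 0.299 and 0.381 in all 4 libraries, while that of Ccl22 to Ccl17 goes from below 1 in WT to above 1 in the ICAM-1 KO-labelled libraries.

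Ccl24, an eotaxin that draws eosinophils through CCR3, had 76.8 and 88.3 normalized counts in WT and 117 and 99.8 in the ICAM-1 KO-labelled libraries. The groups did not overlap, but the lowest ICAM-1 KO-labelled library was nearer to the highest WT library than to its own replicate. The means were 82.5 ± 8.17 (SD, n = 2) and 108 ± 11.9 (SD, n = 2), a 1.33-fold rise (log2 fold change 0.42, SE 0.118, edgeR adjusted p = 0.0488). This call sat at the threshold. It was lost without WT replicate 1 (log2 fold change 0.32, edgeR adjusted p = 0.194), without WT replicate 2 (0.52, 0.0728) and without ICAM-1 KO replicate 1 (0.31, 0.219), and with limma the adjusted p was 0.0603. Ccl24 lies on chromosome 5 (chr5:135569937-135573049, minus strand), apart from the other 9 genes, of which 7 are on chromosome 11.

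Ccl7 (chr11:82045712-82047525, plus strand), a monocyte chemoattractant that binds CCR1, CCR2 and CCR3, had the fewest counts of the 10, on a scale not corrected for length. It had 106 and 26 counts in WT and 137 and 173 in the ICAM-1 KO-labelled libraries, or normalized counts of 3.53, 0.855, 4.79 and 5.54 in the same order. The groups did not overlap, and WT replicate 1 was 4.13-fold above WT replicate 2. The log2 fold change of 1.29 (SE 0.530, edgeR adjusted p = 0.138) did not pass the test. It was 0.58 without WT replicate 2 (edgeR adjusted p = 0.444) and 2.66 without WT replicate 1 (edgeR adjusted p = 0.0465).

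Ccl1, the ligand of CCR8 and a product of activated T cells, mast cells and ILC2s, had normalized counts of 22.7 and 17.4 in WT and 10.0 and 13.5 in the ICAM-1 KO-labelled libraries. Both of the latter lay below both WT libraries. The means were 20.1 ± 3.72 (SD, n = 2) and 11.8 ± 2.51 (SD, n = 2). The log2 fold change was -0.74 (SE 0.244, edgeR adjusted p = 0.0776), which did not pass the test, although the unadjusted value was under the threshold. DESeq2 called it (adjusted p = 0.0346), and so did edgeR without ICAM-1 KO replicate 2 (log2 fold change -0.99, adjusted p = 0.0480). The edgeR adjusted p was 0.290 without WT replicate 1 and 0.298 without ICAM-1 KO replicate 1.

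Ccl3, Ccl4 and Ccl5 are inflammatory chemokines that draw T cells and macrophages, and Ccl3 and Ccl5 bind CCR1. They lie on chromosome 11, Ccl3 at chr11:83647844-83649355 on the minus strand, Ccl4 at chr11:83662584-83664683 on the plus strand and Ccl5 at chr11:83525778-83530518 on the minus strand. Ccl4 had 13.9 and 14.9 normalized counts in WT and 9.96 and 10.9 in the ICAM-1 KO-labelled libraries. The latter were the lower pair, with a log2 fold change of -0.44 (SE 0.226, edgeR adjusted p = 0.226). Ccl3 had 8.32 and 15.2 in WT and 10.1 and 8.70 in the ICAM-1 KO-labelled libraries. Only WT replicate 2 stood out, the groups overlapped, and the log2 fold change of -0.31 (SE 0.320, edgeR adjusted p = 0.562) became 0.20 without that library. Ccl5 had 26.6 and 28.0 in WT and 27.1 and 31.7 in the ICAM-1 KO-labelled libraries. Its groups overlapped, and with a log2 fold change of 0.14 (SE 0.163, edgeR adjusted p = 0.620) it was the member with the smallest SE among those that did not pass the test.

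**Figure D3:**
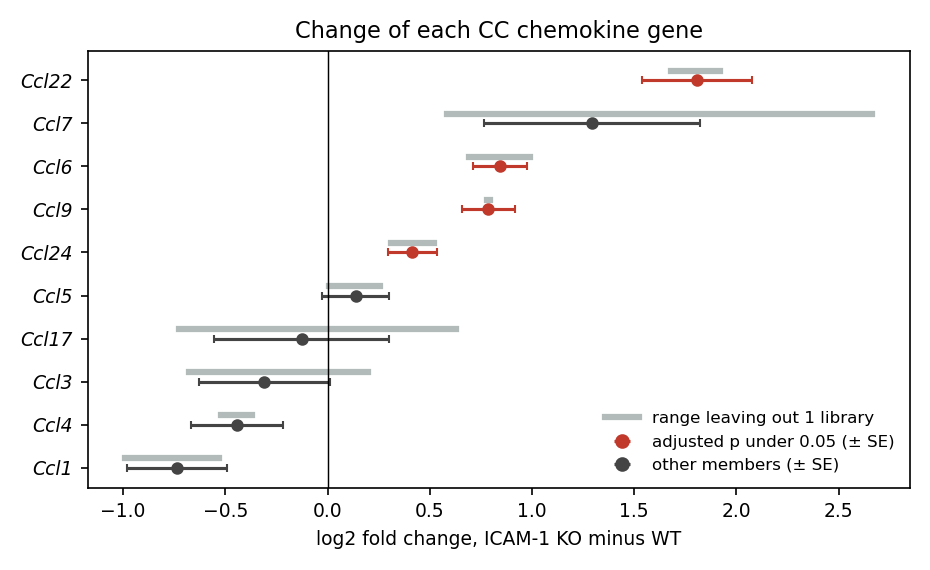
Log2 fold change of each CC chemokine gene, ICAM-1 KO-labelled libraries minus WT, with its standard error (points and thin bars; red for adjusted p under 0.05 by edgeR) and the range of the estimate when 1 of the 4 libraries is left out (thick grey bars). Ccl22, Ccl6, Ccl9 and Ccl24 are in red, and the ranges of Ccl17 and Ccl3 cross 0.

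The order of the genes was read on a per-length scale, as TPM (a library's reads per transcript length, scaled to the same total in each library) computed from the counts and the union of exons of each gene. In WT, Ccl24 was highest at 191 ± 15.2 TPM (SD, n = 2), followed by Ccl6 at 145 ± 17.0 TPM and Ccl5 at 85.1 ± 1.41 TPM. Ccl17, Ccl4 and Ccl3 came next at 72.5 ± 40.3, 65.5 ± 2.00 and 45.8 ± 18.3 TPM. Ccl9 and Ccl1 stood at 29.4 ± 0.806 and 25.4 ± 5.21 TPM, above Ccl7 at 8.17 ± 7.25 TPM and Ccl22 at 6.02 ± 0.589 TPM. Among neighbours in this order, Ccl17 overlapped Ccl5 above it and Ccl4 below it, Ccl9 overlapped Ccl1, and Ccl7 overlapped Ccl22; the other neighbours did not overlap in the 2 WT libraries.

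In the ICAM-1 KO-labelled libraries, Ccl6 and Ccl24 overlapped at the top with 267 ± 24.9 and 262 ± 38.7 TPM (SD, n = 2). Ccl5 followed at 95.5 ± 6.99 TPM and Ccl17 at 67.4 ± 29.02 TPM. Ccl9 had rank 5 at 51.9 ± 2.58 TPM, against rank 7 in WT, and overlapped Ccl17 above it. Ccl22 went from rank 10 to rank 8 at 21.4 ± 1.48 TPM. Ccl4 and Ccl3 lay between them at 49.2 ± 1.25 and 38.3 ± 5.41 TPM. Ccl22 overlapped Ccl7, which stood at 20.0 ± 1.32 TPM, and Ccl1 was last at 15.4 ± 2.72 TPM. The 10 genes added up to 618 and 731 TPM in WT and 873 and 903 TPM in the ICAM-1 KO-labelled libraries. The share of Ccl6 in that sum was 21.6% and 21.5% in WT and 28.5% and 31.5% in the others, and the share of Ccl1 was 4.72% and 2.98% against 1.55% and 1.92%, with the length of the union of exons.

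The place of Ccl1 depends on the length given to it. Its annotation on chromosome 11 (chr11:82176657-82305690, minus strand) spans 129034 bases and 3 transcripts, with a union of exons of 2369 bases, while its longest protein-coding transcript has 611 bases. Over the 4 libraries Ccl1 had a mean of 20.4 TPM and rank 8 with the first length and 55.5 TPM and rank 4 with the second, a choice of length added after the values were seen. The order of the 45 pairs of genes was the same in 39 with that length. The share of Ccl1 in the sum of the 10 genes was then 14.1% and 9.35% in WT and 5.0% and 6.09% in the ICAM-1 KO-labelled libraries.

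**Figure D4:**
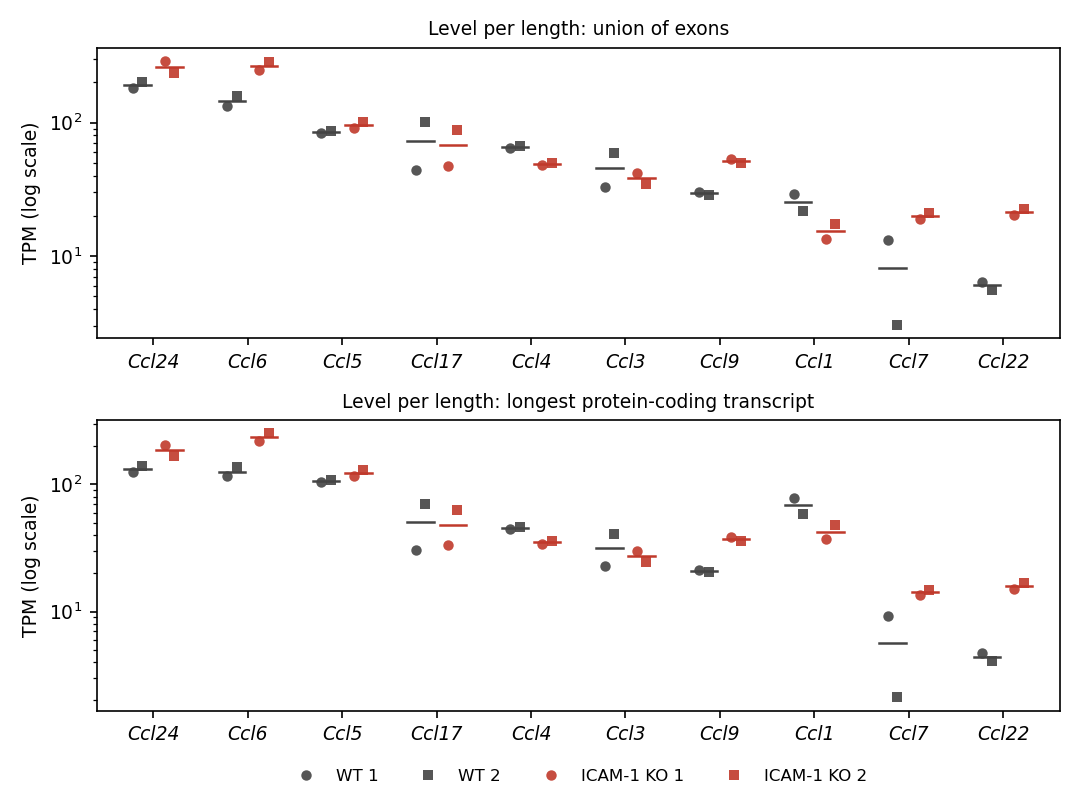
TPM of each CC chemokine gene on a log axis in the 2 WT libraries (grey) and the 2 labelled ICAM-1 KO (red), with a line at each group mean, using the union of exons (top) or the longest protein-coding transcript (bottom). Genes are in the WT order of the top panel, and Ccl1 is the gene whose place shifts most between the panels.

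Beside the ligands, 14 CC receptor genes were listed, of which 11 passed the filter. Of these, 5 rose and 1 fell, where 8.80% of all genes tested rose and 4.97% fell (edgeR, adjusted p under 0.05). Among the receptors, Ccr8, which binds Ccl1, had the largest normalized counts, not corrected for length. These were 584 and 515 in WT and 403 and 389 in the ICAM-1 KO-labelled libraries. The groups did not overlap, and Ccr8 fell by 0.45 on the log2 scale (SE 0.0900, edgeR adjusted p = 0.0147). Ccr1, which binds Ccl3, Ccl5, Ccl6, Ccl7 and Ccl9, had 19.1 and 23.3 in WT and 39.2 and 36.4 in the ICAM-1 KO-labelled libraries, and rose (log2 fold change 0.86, SE 0.165, edgeR adjusted p = 0.0122). Ccr3, the eotaxin receptor, had 5.18 and 8.42 in WT and 14.6 and 25.6 in the ICAM-1 KO-labelled libraries. It rose by 1.60 on the log2 scale (SE 0.347, edgeR adjusted p = 0.0192).

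Ccr4, the receptor for Ccl17 and Ccl22, had 67.7 and 74.4 in WT and 78.2 and 72.0 in the ICAM-1 KO-labelled libraries. These groups overlapped (log2 fold change 0.11, SE 0.111, edgeR adjusted p = 0.572), which sets the receptor beside a ligand that rose and one that did not pass the test. Ccr2, the receptor of inflammatory monocytes that binds Ccl7, had a log2 fold change of 0.32 (SE 0.0968, edgeR adjusted p = 0.0563). Of the receptors with no ligand among the 10 genes, Ccr6 rose by 1.80 and Ccr9 by 1.29 on the log2 scale (edgeR adjusted p = 0.00782 and 0.0109). Ackr2, a scavenger that degrades inflammatory CC chemokines, rose by 1.97 on the log2 scale from 1.35 and 3.04 normalized counts in WT to 6.91 and 9.91 (edgeR adjusted p = 0.0193).

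Without WT replicate 1, which leaves 1 WT library, the receptors that had passed the test kept their direction at smaller log2 fold changes. These were 0.72 for Ccr1, 1.29 for Ccr3, 1.33 for Ccr6, -0.35 for Ccr8, 1.15 for Ccr9 and 1.51 for Ackr2. Fewer calls were made in that fit, among the receptors and over all genes, as given in the last section. Ccr3 stood at 1.11 without ICAM-1 KO replicate 2, where it did not pass the test. Without WT replicate 2, Ccr6 had 2.55 and Ackr2 2.69.

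**Figure D5:**
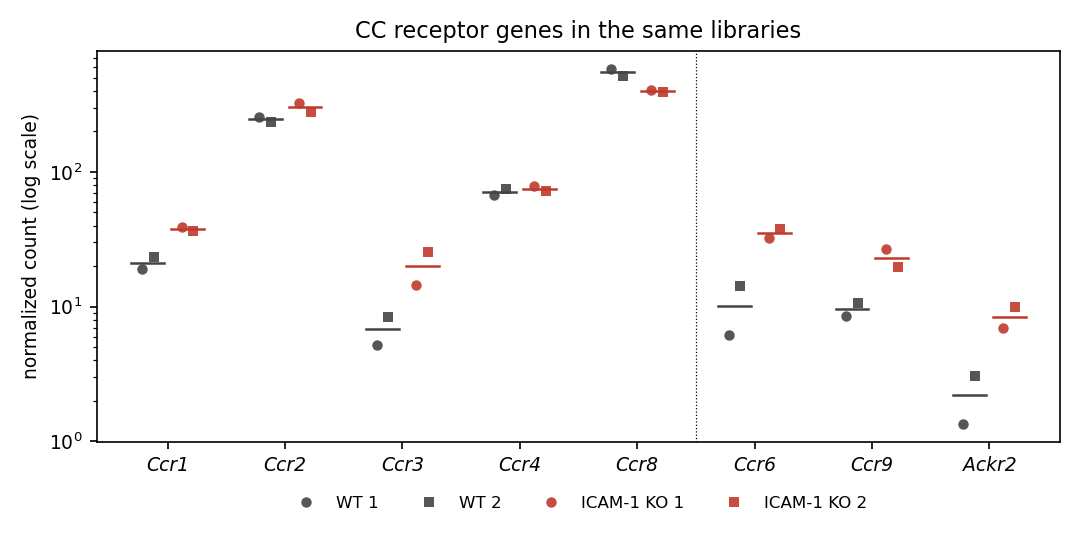
Normalized count of CC receptor genes on a log axis in the 2 WT libraries (grey) and the 2 labelled ICAM-1 KO (red), with a line at each group mean; the signalling receptors left of the dotted line bind 1 or more of the 10 chemokines, and the scavenger Ackr2 is on the right with Ccr6 and Ccr9. Ccr8 is highest in every library and lower in those labelled ICAM-1 KO, Ccr4 overlaps, and Ccr1 and Ccr3 are higher in both ICAM-1 KO-labelled libraries.

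Of 11 other CC ligands listed, 9 were in the count table and 3 passed the filter. Of these 3, 0 passed the test in edgeR, where 8.80% of all genes tested rose and 4.97% fell. At an unadjusted p under 0.05 in edgeR 0 did, where 17.1% and 13.1% of all genes did. DESeq2 called 0, against 10.8% and 7.94% of all genes. With 3 genes, 0 called cannot be told apart from these shares. The monocyte chemoattractant Ccl2 had 280 and 202 counts in WT and 210 and 446 in the ICAM-1 KO-labelled libraries. Ccl11, another eotaxin gene, stayed under the filter with 0 and 2 counts in WT and 31 and 136 in the ICAM-1 KO-labelled libraries, and Ccl8 had 7 and 21 against 63 and 141. Both passed when edgeR's filterByExpr let them in (adjusted p = 0.0433 and 0.0480), and neither did with no filter (edgeR adjusted p = 0.102 and 0.101). Ccl21a, which has near-identical copies in the genome, had 0, 295, 113 and 238 counts and passed without WT replicate 2 (edgeR adjusted p = 0.0289). Ccl20 had no count in any library.

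Since several of these chemokines are known products of myeloid cells, the levels of other cell types are given here. For each list of markers, here and below, the share over all genes tested was 8.80% higher and 4.97% lower (edgeR, adjusted p under 0.05). Of 16 macrophage and monocyte markers 14 were tested, 9 rose and 0 fell, and the summed normalized count of the list went from 568 to 573 in WT to 973 to 1197 in the ICAM-1 KO-labelled libraries. The largest counts on it were those of Ccr2 (above) and Lyz2, the lysozyme of myeloid cells, with 169, 172, 344 and 577 normalized counts (log2 fold change 1.46, edgeR adjusted p = 0.00324). Of 12 dendritic cell markers 9 were tested, 4 rose and 0 fell, with sums of 668 to 711 in WT and 800 to 885 in the others. Its leading genes were Cst3 (log2 fold change -0.20, edgeR adjusted p = 0.160) and H2-Ab1, an MHC class II chain (0.86, edgeR adjusted p = 0.00382). Cst3 was lower in both ICAM-1 KO-labelled libraries than in both WT libraries, while the sums of both lists were higher, as were Ccl22, Ccl6, Ccl9 and Ccr1. The part of these cells in those results was not tested.

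Of the eosinophil markers, the granule genes Epx and Prg2 fell. Epx, the eosinophil peroxidase, had 1027 and 739 counts in WT and 0 in both ICAM-1 KO-labelled libraries, and Prg2, the major basic protein, had 1583 and 1041 against 33 and 118. Ccr3 is on the same list and was higher where these granule genes were at or near 0. Of 8 eosinophil markers 6 were tested, 3 rose and 2 fell, with sums of 84.8 to 109 in WT and 38.0 to 60.9 in the ICAM-1 KO-labelled libraries, and their part in the values of Ccl24, Ccl6 and Ccr3 was not tested.

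Markers of other cells, some of which the lineage gate of the sort was set against, were higher as well. Of 11 T cell markers 6 rose, with sums of 721 to 820 in WT and 1159 to 1361 in the ICAM-1 KO-labelled libraries. Of 8 B cell markers 5 rose, with sums of 1111 to 2330 and 4254 to 5971, and of 6 neutrophil markers tested 4 rose, with sums of 77.3 to 82.4 and 143 to 189. Of 8 basophil and mast cell markers 3 rose, with sums of 1089 to 1335 in WT and 1561 to 2021 in the others. For 8 alveolar epithelium markers tested 4 rose, with sums of 189 to 421 and 538 to 1360. On that list Sftpc had 24.2 and 0.570 against 253 and 537 normalized counts (log2 fold change 5.05, edgeR adjusted p = 0.00477). Scgb1a1 overlapped between the groups (0.43, edgeR adjusted p = 0.651). Among 5 NK cell and ILC1 markers tested 1 rose, with sums of 270 to 313 and 314 to 358. In these 6 lists 0 fell, and no marker of any list was at 0 in all 4 libraries. For endothelium 10 of 10 rose, with sums of 161 to 165 in WT and 416 to 438 in the ICAM-1 KO-labelled libraries; Pecam1 rose by 1.07 and Ramp2 by 1.41 on the log2 scale (edgeR adjusted p = 0.00112 and 0.000656). Ccl22 was higher in the same libraries as the endothelium markers. The part of any of these cell types in the values of Ccl22, the other chemokines or the receptors, Ccr6 and Ccr9 among them, was not tested. By contrast, 2 of 14 ILC2 markers rose and 4 fell, among them Il5 and Arg1, which fell by 0.76 and 0.65 on the log2 scale (edgeR adjusted p = 0.00274 and 0.00371).

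The genes whose pattern over the 4 libraries was most like that of Ccl22, the member with the largest rise, were Clec1a, Tspan7 and Cav1, at a root mean square difference of 0.0442 to 0.0599 in centred log2 normalized counts. Cav1, the caveolin of membrane caveolae, had 27.2 and 25.6 normalized counts in WT and 90.7 and 96.7 in the ICAM-1 KO-labelled libraries. Tspan7, a tetraspanin, had 27.5 and 22.7 against 82.8 and 94.4, and Clec1a, a C-type lectin, 7.89 and 6.68 against 24.2 and 26.8. Cav1, Tspan7 and Clec1a are on none of the marker lists. Like Ccl22, they were higher in the same libraries as the markers of endothelium and other lung cells, and the cells they come from were not tested. For Ccl1, the member with the lowest log2 fold change, the nearest were Map7d3, Commd5 and Nipa1, at 0.0398 to 0.0503. With 4 libraries many genes share a pattern, and 13 genes lay within 0.1 of Ccl22 and 17 within 0.1 of Ccl1.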

How the data were processed

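The data are RNA sequencing libraries of sorted lung ILC2s, 2 from WT and 2 labelled ICAM-1 KO, with 24796148 to 28782471 counts each; groups and replicate numbers come from the sample titles. The authors made cDNA with a SMARTer low-input kit and aligned reads with STAR to mm10. The submitters' processing notes list CASAVA 1.8.2 and a STAR version 3.5.3, while the paper's methods give another STAR version. The authors deposited expected counts per gene, estimated by the E/M method of Partek with GENCODE M20. They also deposited a normalized signal for 18324 genes, by upper quartile, in which a value is the count plus 1 times a factor per library. Whether counting used strand is not given in the sources used here.

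Expected counts were rounded and tested with edgeR 4.0.16 (quasi-likelihood, the newer form of glmQLFit) under R 4.3.3. Library factors were upper quartile factors, without a covariate. The 11711 genes tested had normalized counts that averaged 1 or more and summed to 10 or more, and p-values were adjusted over these genes by Benjamini-Hochberg. The SE is the log2 fold change divided by the root of its F statistic, and means, SDs and overlap are of the deposited normalized counts. The fit was also run on simulated data with the same spread between libraries for every gene, so that run does not measure its errors on these libraries. TPM used GENCODE M21 exon lengths, found for 22354 of the 22558 genes, and coordinates, which are those of the deposited table with the end moved by 1 base, match that release for 21855.

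The members and lists were chosen with earlier results of these data known. Named are the 10 members, Icam1, receptors that passed the test or bind a member (1 listed receptor is not reported here), the 2 markers with the largest counts per list set beside a result, and the 3 genes most like the members with the highest and lowest log2 fold change; Cx3cl1, Ccl2, Ccl8, Ccl11, Ccl20 and Ccl21a were named after their values were seen. The alternatives were TMM factors, DESeq2 1.42.0, limma 3.58.1 on log2(normalized count + 1), no filter, filterByExpr, at least 10 counts in every library, the older glmQLFit, the replicate number as a block, leaving out each library, and other transcript lengths. The reads carry no molecular identifier, so the counts do not number single molecules.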

Additional observations from a re-analysis of the deposited data

How the results depend on the processing

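The log2 fold changes of Ccl22, Ccl6 and Ccl9 kept their direction and passed the test under all 12 alternatives. Ccl24 kept its direction but missed the threshold in 9: at 0.42 with TMM factors, 0.37 with no filter, 0.39 with filterByExpr, 0.42 with the older glmQLFit, 0.39 with limma, and between 0.31 and 0.52 with WT replicate 1, WT replicate 2 or ICAM-1 KO replicate 1 left out; the cause was not tested. With the replicate block, Ccl24 was at 0.42 (adjusted p = 0.0543) and no other call on the 10 genes changed. Replicate numbers are shared between groups in name only. Over the genes tested, the deviations of the replicate 1 libraries from their group means had a correlation of -0.0293 between the groups. The block moved the count of genes called higher from 1030 to 1077. Ccl1 passed the test with DESeq2 at -0.75, and ranged from -0.99 to -0.53 with 1 library left out, so that 1 member was called lower with DESeq2 and with ICAM-1 KO replicate 2 left out (0 to 1 over the left-out libraries). With 1 library left out, Ccl7 ranged from 0.58 to 2.66, Ccl3 from -0.68 to 0.20 and Ccl17 from -0.72 to 0.63. Members called higher numbered 3 or 4 throughout. Other CC ligands called numbered 2 with filterByExpr and 0 to 1 with 1 library left out; CC receptors called numbered 1 with no filter, which tested 22158 genes, and 1 to 6 with 1 library left out, against 6. Over all genes, calls in both directions were 1030 higher and 582 lower, against 334 and 201 with no filter, 1261 and 930 with DESeq2, and 479 and 208, 523 and 158, 948 and 357, and 786 and 388 with WT replicate 1, WT replicate 2, ICAM-1 KO replicate 1 and ICAM-1 KO replicate 2 left out. With 3 libraries, the lone one was assumed to vary like the other group. There are 2 libraries a group. Ccl7 had 26 counts in WT replicate 2, the library with the largest total, and 106 in WT replicate 1.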
